A study of Mus musculus with 4 samples.

Results

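Gdf15, a secreted stress hormone, and 9 genes of the integrated stress response (Fgf21, Atf3, Atf4, Ddit3, Trib3, Asns, Chac1, Sesn2 and Ppp1r15a) were followed in ileal RNA of male C57BL/6J mice. The probes were those whose RefSeq accession maps to these 10 symbols, 11 probes among 39429 on the array. The 2 metformin samples came from mice given metformin by mouth at 1000 mg/kg and the 2 control samples from mice labelled as controls. All were 10 weeks old, and neither a vehicle nor the length of treatment is given. Each total RNA was hybridised to its own single-colour array. Samples carry the numbers 1 and 2 within each group, with nothing said of what a number marks or whether the samples are separate animals. The p-values below thus rest on the spread between samples of a group, whether biological or technical.

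The integrated stress response slows protein synthesis when a kinase phosphorylates the initiation factor eIF2, while the transcription factor ATF4 is translated more. ATF4 and its partners then induce genes of amino acid supply, redox balance and cell fate, along with feedback regulators that restore translation. GDF15 and FGF21 are hormones that stressed cells release under this programme. Metformin, a glucose-lowering drug that acts on mitochondria, is known to raise circulating GDF15, and the gut is a known source of it.

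All values are log2 processed signal minus the 75th percentile of that array's non-control probes, so that 0 marks that percentile and each unit is a doubling. Levels of different probes are not compared. The 75th percentile signal lay between 866 and 1072 in the metformin arrays and between 918 and 1454 in the control arrays. Between 65.1% and 69.1% of probes were well above background, and no spot was saturated. Repeated spots of 129 bright probes, 10 spots each, had a median SD of 0.05 within an array. The arrays shared 1 slide and 1 scan. Metformin 1 and 2 lay at positions 3 and 4 and control 1 and 2 at positions 1 and 2, so position and treatment cannot be told apart. Nor can position and sample number be told apart within a group.

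Of the 10 genes, 9 were well above background on every array and were tested, and 0 of the 9 passed in limma's fit across 21649 genes and transcripts (adjusted p = 1.00 for each). None of those 21649 passed either (0%), and 347 had an unadjusted p under 0.05 (1.6%, 75 higher and 272 lower), with none of the 9 among them. The groups overlapped for all 9 genes, whereas 20.9% of all genes showed no overlap (12.3% higher and 8.57% lower with metformin). The median difference, metformin minus control, was -0.10 over the 9 genes and 0.06 over all genes. Most of the 9 genes instead followed the sample number, for which no test was run. In 7 of the 9 genes both samples numbered 2 lay above both numbered 1, an order found in 27.7% of all genes, and in 0 of the 9 was the order the opposite (38.2% of all genes). In 5 of the 9 (Gdf15, Atf3, Atf4, Asns and Chac1) sample 2 was at least 2-fold above sample 1 in each group, against 3.8% of all genes, and in 0 of the 9 was sample 1 that far above sample 2 (4.71% of all genes). In the control samples alone this held for 5 genes (5.91% of all genes), and in the metformin samples alone for 6 (8.99%), Ppp1r15a being the addition.

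**Figure D1:**
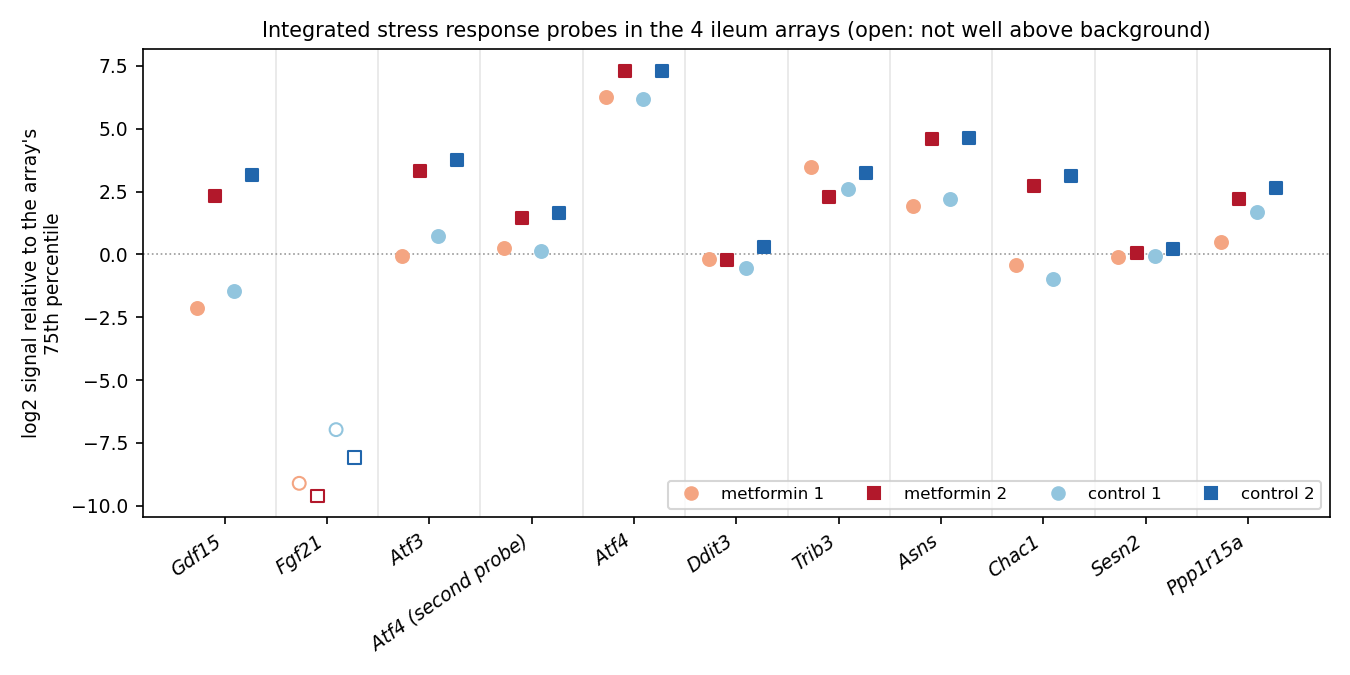
Scaled log2 signal (0 is the 75th percentile of the array) for the 11 probes in metformin 1, metformin 2, control 1 and control 2; open symbols are not well above background. The squares (samples numbered 2) stand above the circles for Gdf15, Atf3, both Atf4 probes, Asns, Chac1, Sesn2 and Ppp1r15a, but not for Ddit3 or Trib3.

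Of the hormones, Gdf15, a distant member of the TGF-beta family that acts on the hindbrain to lower appetite, had the widest gap between samples of the same treatment. It read -2.12 and 2.33 in metformin 1 and 2, against -1.47 and 3.15 in control 1 and 2. Metformin 2 and control 2 were thus high and metformin 1 and control 1 low, and the ranges of the groups overlapped, with both ends of the metformin range the lower ones. Sample 2 exceeded sample 1 by 21.9-fold in the metformin group and by 24.5-fold in the control group. In only 7 of the 21649 genes, Gdf15 included, did sample 2 exceed sample 1 by at least as much in both groups (0.0323%). Gaps with sample 1 the higher one are not in this count. The treatment means were 0.11 ± 3.15 with metformin and 0.84 ± 3.26 in controls (SD, n = 2 each), a difference of -0.73 (SE 2.17, 95% interval -6.54 to 5.08). In this fit, which takes no account of the sample number, the interval reaches from 93.1-fold lower to 33.7-fold higher. Within each number the metformin sample was the lower one. Without metformin 1 the difference was 1.49 and without control 2 it was 1.57, the opposite sign.

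Fgf21, a hormone that regulates energy balance and is best known from liver, was not well above background on any array. Its probe read -9.11 and -9.61 in the metformin samples, against -6.97 and -8.07 in the controls, each below the lowest signal that counted as well above background on that array. No fold is given for it.

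Atf4, the central transcription factor of the response, had 2 probes. The brighter read 6.28 and 7.32 in metformin 1 and 2, against 6.20 and 7.28 in control 1 and 2, a difference of 0.06 (SE 0.57, interval -1.47 to 1.59). The other read 0.27 and 1.46 with metformin, against 0.15 and 1.66 in controls, a difference of -0.04 (SE 0.70). On both probes the samples numbered 2 were the higher ones, by 1.04 and 1.19 within the metformin group and by 1.08 and 1.51 within the control group. Atf4 is controlled largely at translation, which arrays do not measure.

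Atf3, a stress-induced factor of the same bZIP class and a target of ATF4, read -0.06 and 3.31 in metformin 1 and 2, against 0.74 and 3.74 in control 1 and 2. Sample 2 was 10.3-fold above sample 1 with metformin and 8.04-fold above it in controls, and the treatment difference was -0.61 (SE 1.54, interval -4.73 to 3.51). Within each number the metformin sample was the lower one, as it was for Gdf15, Asns, Sesn2 and Ppp1r15a, but not for the other tested genes of the set. How many of all genes had this order was not counted, and the numbers are not stated to pair samples. The difference turned positive without metformin 1 (1.07) or control 2 (0.89). Ddit3, which encodes the pro-apoptotic factor CHOP, behaved otherwise. It read -0.16 and -0.21 with metformin, against -0.53 and 0.30 in controls. Both metformin values lay between the control values, and the difference was -0.07 (SE 0.39, interval -1.11 to 0.97).

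Among the enzymes, Asns makes asparagine and is a standard ATF4 target. It read 1.91 and 4.60 in metformin 1 and 2, against 2.20 and 4.65 in control 1 and 2. The samples numbered 2 were the high ones, by 6.45-fold with metformin and 5.48-fold in controls. The treatment difference was -0.17 (SE 1.25, interval -3.52 to 3.18). Chac1, which breaks down glutathione, read -0.43 and 2.72 in metformin 1 and 2, against -0.96 and 3.11 in control 1 and 2. Its sample 2 was 8.87-fold above sample 1 with metformin and 16.8-fold in controls, with both control values outside the metformin range. The treatment difference was 0.07 (SE 1.75, interval -4.61 to 4.75). Leaving out 1 sample gave from -1.52 to 1.18 for Asns and from -1.97 to 2.10 for Chac1.

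Of the feedback regulators, Ppp1r15a and Sesn2 had the same order over the 4 arrays, with steps of different size, while Trib3 had another. Ppp1r15a, the GADD34 subunit that directs a phosphatase to eIF2 and so restores translation, read 0.49 and 2.19 in metformin 1 and 2, against 1.67 and 2.65 in control 1 and 2. Metformin 1 was the lowest array, and each metformin sample lay below the control sample of its number. Its difference of -0.82 (SE 0.71, interval -2.72 to 1.08) was the largest of the 9 in size and had the smallest unadjusted p (0.31). It was 0.03 without metformin 1. Sesn2, a stress-induced inhibitor of mTORC1 signalling that also senses leucine, varied little: -0.11 and 0.07 with metformin, against -0.05 and 0.22 in controls. Its difference was -0.10 (SE 0.29, interval -0.89 to 0.69), the narrowest interval of the 9. Trib3, a pseudokinase that ATF4 and CHOP induce and that restrains them, read 3.47 and 2.30 in metformin 1 and 2, against 2.60 and 3.22 in control 1 and 2. It was the one gene of the set that was highest in metformin 1, and the difference was -0.02 (SE 0.52, interval -1.43 to 1.38).

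**Figure D2:**
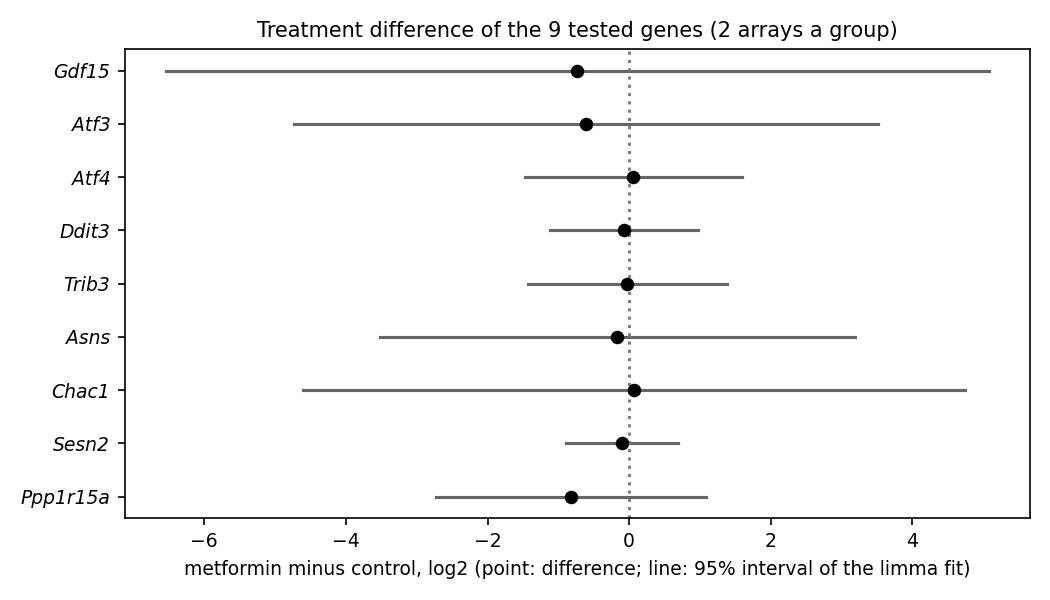
Metformin minus control (log2) for the 9 tested genes, with the 95% interval of limma's fit over 2 arrays a group. Every interval spans 0; Sesn2 has the narrowest (-0.89 to 0.69) and Gdf15 the widest (-6.54 to 5.08).

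**Figure D3:**
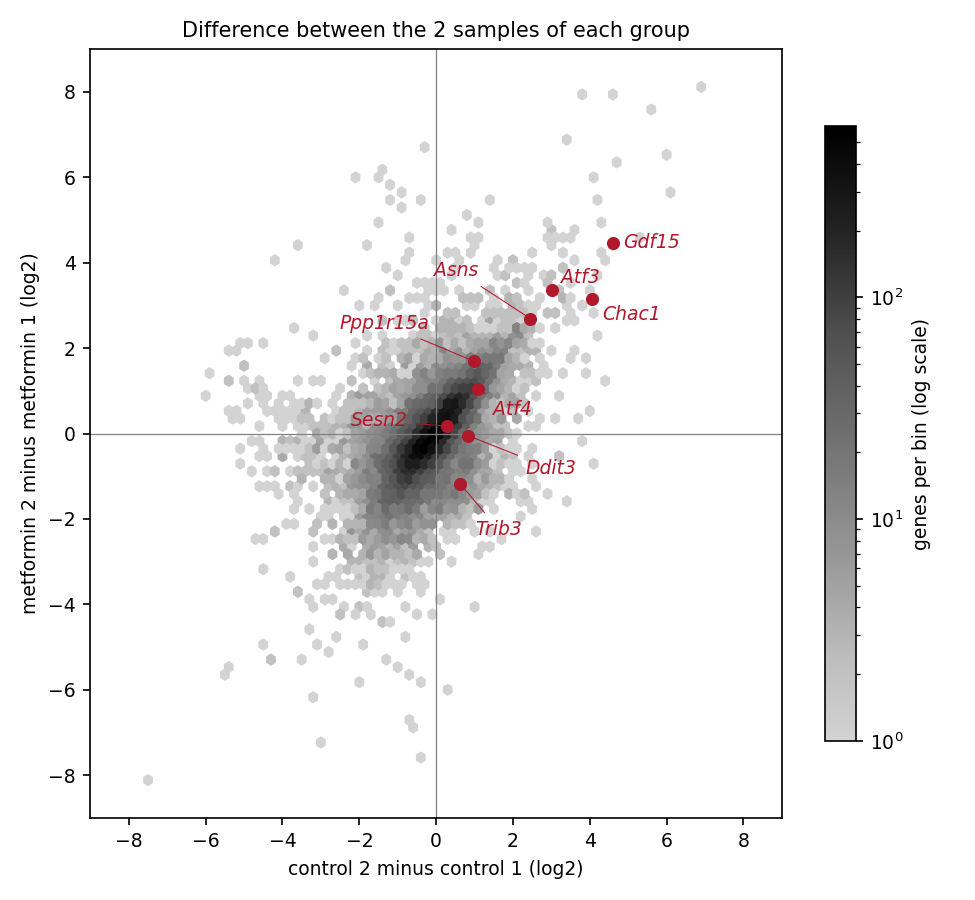
Metformin 2 minus metformin 1 (vertical) against control 2 minus control 1 (horizontal), log2, for the 21649 genes tested (grey, darker for more genes in a bin), with the 9 tested genes in red. Gdf15 lies near 4.5 on both axes, Atf3, Chac1 and Asns between 2.4 and 4.1, and Trib3 is below 0 in the metformin group and above 0 in the control group.

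Genes were next ranked by how closely their pattern over the 4 arrays followed that of Gdf15, as the Euclidean distance between values centred on each gene's own mean, over 14591 named genes. The nearest were Egr1, an immediate early transcription factor (distance 0.75), Ankrd22 (0.79), the placental growth regulator Phlda2 (0.84), the matrix protease Adamts4 (0.90), the amino acid exchanger subunit Slc7a5 (1.07) and the transcription factor Tcf23 (1.10). Egr1 read -0.54 and 4.27 in metformin 1 and 2, against 0.56 and 4.22 in control 1 and 2. Slc7a5, itself an ATF4 target, read -3.60 and -0.09 with metformin, against -3.22 and 0.31 in controls. Adamts4 was not well above background in control 1. Of the other stress response genes, Chac1 ranked 11, Atf3 15, Asns 53, Ppp1r15a 469, Atf4 948, Ddit3 3239, Sesn2 4182 and Trib3 9140. The distance counts the size of the steps, so genes with the same order but small steps, such as Sesn2, rank low. With 4 arrays such a ranking is a description only.

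The sequences before the starts of these genes were read because several of them moved together. A response element for ATF4 with C/EBP partners was searched as TGATGNAA on both strands of the 250 bases before each annotated start, in the RefSeq promoters of GRCm38.p6, where all 10 genes matched with 11 starts (2 for Gdf15). The palindromic cAMP response element, TGACGTCA, was searched in the same way. The first was found at 4 of the 10 genes and in 3.45% of 32851 promoters, the second at Ppp1r15a alone and in 1.55% of promoters, and no matches of the 2 overlapped. The windows below are shown because they hold those matches, in capitals, with up to 40 bases on either side, 5′ to 3′ on the strand of the gene.
Atf3 (chr1:191183396-191183483, minus strand): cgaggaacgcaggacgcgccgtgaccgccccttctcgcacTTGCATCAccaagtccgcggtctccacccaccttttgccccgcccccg
Asns (chr6:7693210-7693272, minus strand): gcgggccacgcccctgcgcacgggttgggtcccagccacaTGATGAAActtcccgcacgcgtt
Chac1 (chr2:119351009-119351096, plus strand): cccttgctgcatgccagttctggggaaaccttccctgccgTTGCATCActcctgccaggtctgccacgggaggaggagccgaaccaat
Fgf21 (chr7:45615582-45615669, minus strand): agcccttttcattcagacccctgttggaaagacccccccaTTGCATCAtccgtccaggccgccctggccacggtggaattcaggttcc
Ppp1r15a (chr7:45526269-45526320, minus strand): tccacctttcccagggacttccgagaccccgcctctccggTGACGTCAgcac

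In Atf3, Chac1 and Fgf21 the match was the same 8 letters on the opposite strand, TTGCATCA, lying 103 to 110, 186 to 193 and 132 to 139 bases before the start. In Asns it lay 16 to 23 bases before the start on the gene's own strand, and the element of Ppp1r15a lay 5 to 12 bases before it. The 3 genes with both a TGATGNAA match and a detected signal, Atf3, Asns and Chac1, were among the 5 whose sample 2 exceeded sample 1 by 2-fold in each group. Gdf15 and Atf4, the others of those 5, held no match in this window, and neither did Ddit3, Trib3 or Sesn2. A match of letters is no evidence of binding, and no match says nothing of sites elsewhere.

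The other ATF4 targets were read from a list of 36 genes, of which 35 were on the array and 34 tested. In the treatment comparison 0 were higher and 0 lower at the adjusted threshold, with a median difference of -0.15. Between the samples of a group they moved as the set above did. In 29 of the 34 both samples numbered 2 lay above both numbered 1 (27.7% of all genes), and in 16 sample 2 was at least 2-fold above sample 1 in each group (3.8% of all genes). The median step from sample 1 to sample 2 was 1.08 in the metformin group and 1.11 in the control group, against -0.10 and -0.13 over all genes. The genes of smallest treatment p were Slc3a2, the partner chain of Slc7a5 (0.44, SE 0.38), Aldh1l2, a mitochondrial folate enzyme (-0.55, SE 0.52), and Pck2, the mitochondrial PEP carboxykinase (-0.55, SE 0.52). Slc3a2 was highest in metformin 1, unlike its partner.

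Some of the larger steps, chosen after their values were seen, lay in serine and folate metabolism. Psat1, of serine synthesis, read -1.30 and 1.62 in metformin 1 and 2, against -0.73 and 2.20 in control 1 and 2. Mthfd2, of mitochondrial folate metabolism, read -1.99 and 0.80, against -1.80 and 1.35. For both enzymes the samples numbered 2 were high and the treatment groups overlapped. The transcription factor Atf5 read 1.64 and 3.84 with metformin, against 1.96 and 4.27 in controls. Map1lc3b, an autophagy protein, ran the other way, at 3.56 and 2.51 with metformin, against 3.44 and 2.72 in controls. Slc7a11, the cystine transporter, was well above background only in metformin 2 and control 2 and was not tested.

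Of 19 genes for the eIF2 kinases, eIF2, its exchange factor, its phosphatases and the mitochondrial relay (Dele1 and Oma1), 0 passed the test in either direction and the median difference was -0.05. Both samples numbered 2 were on top in 12 of the 19 (27.7% of all genes), and sample 2 was at least 2-fold above sample 1 in each group for 4 (3.8% of all genes). Named after its values were seen, the eIF2 subunit Eif2s1, which was 1 of these 4, read 1.39 and 2.60 with metformin, against 1.58 and 2.64 in controls. The smallest treatment p belonged to Impact, an inhibitor of the kinase GCN2 (-0.41, SE 0.28, no overlap), Eif2ak4, GCN2 itself (-0.29, SE 0.38), and Eif2b2, an exchange factor subunit (0.21, SE 0.29, no overlap). The kinase PERK, Eif2ak3, also named outside the rule, read 1.59 and 1.54 with metformin, against 1.47 and 1.37 in controls.

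Of 21 chaperones of the endoplasmic reticulum and genes of its ATF6 and IRE1 branches tested, 0 had sample 2 at least 2-fold above sample 1 in each group (3.8% of all genes), and 7 had both samples numbered 2 on top (27.7% of all genes). In the metformin group alone 4 of them (8.99% of all genes), named after their values were seen, had the 2-fold step: the chaperone Hspa5 (1.02, against 0.36 in controls), the disulfide isomerase Pdia6 (1.05, against 0.33), Creld2 (1.01, against 0.21) and Manf (1.00, against 0.41), all as log2 differences of sample 2 minus sample 1. None passed the treatment test in either direction, and the median difference was 0.12. Xbp1, the IRE1 target, differed by 0.47 (SE 0.48), the membrane protein gene Wfs1 by 0.26 (SE 0.28, no overlap) and Ern1, which encodes an IRE1 kinase, by -0.29 (SE 0.32). The 6 genes of mitochondrial protein folding all had the samples numbered 2 on top (27.7% of all genes), by smaller steps. The medians of these steps were 0.90 with metformin and 0.83 in controls. The treatment differences of these 6 genes were all below 0 and none passed. Examples are Clpp, a matrix protease (-0.25, SE 0.36), its fellow protease Lonp1 (-0.23, SE 0.39) and the chaperonin Hspd1 (-0.35, SE 0.65).

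**Figure D4:**
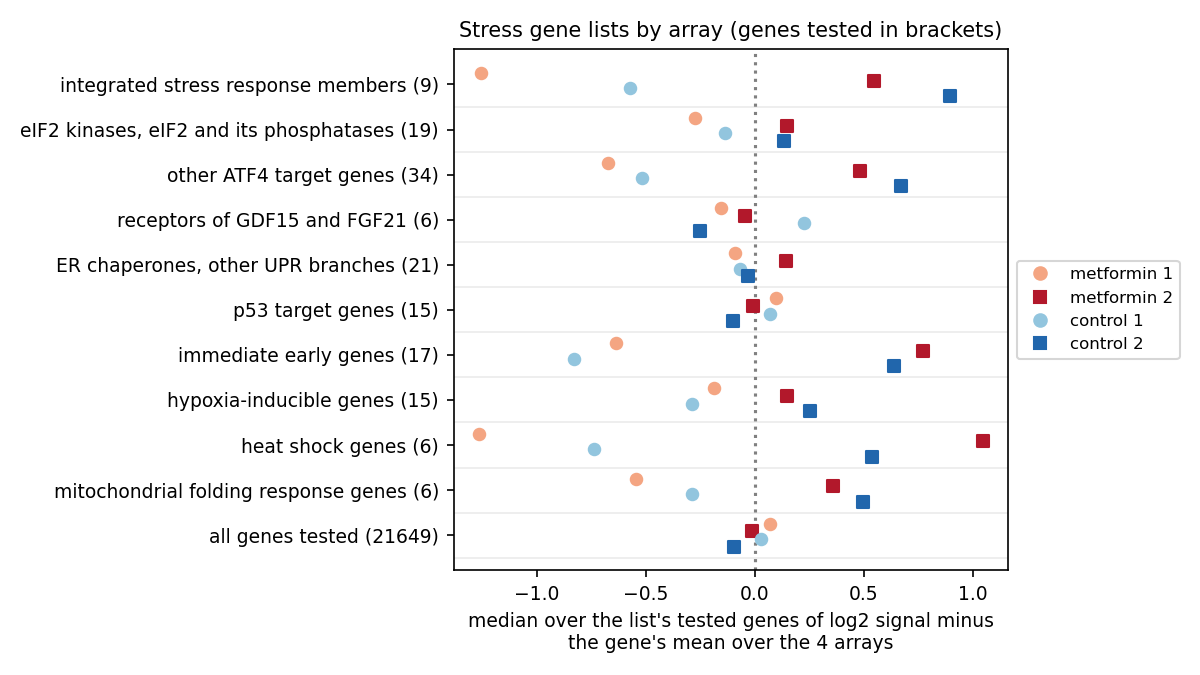
Median over each list's tested genes (number in brackets) of log2 signal minus the gene's mean over the 4 arrays, for metformin 1 and 2 and control 1 and 2. Samples numbered 2 stand to the right for the stress response members, the other ATF4 targets, the immediate early, heat shock and mitochondrial folding genes. They do so by less for the eIF2 and hypoxia-inducible lists, while ER chaperones and p53 targets stay near 0.

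Of the receptors, Gfral, through which GDF15 signals in the hindbrain, was not well above background on any array. Klb, the FGF21 co-receptor, read -5.58 and -5.06 with metformin, against -4.91 and -4.55 in controls (-0.59, SE 0.35, no overlap, not passing). Fgfr1 differed by 0.20 (SE 0.31) and Fgfr4, which also receives the ileal hormone FGF15, by -0.69 (SE 1.17). Of the 6 receptors tested, 3 (Fgfr1, Fgfr2 and Fgfr3) had both samples numbered 1 on top (38.2% of all genes). In 1, Fgfr4, both numbered 2 were on top (27.7% of all genes). Fgfr4 read 1.56 in metformin 2 and 1.70 in control 2, against -1.31 in metformin 1 and -0.08 in control 1.

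Cell type markers differed between arrays as well. Sums of linear signal relative to the 75th percentile, in which the brightest probe weighs most, are given for each marker list. Absorptive epithelium markers summed to 1670 and 998 in metformin 1 and 2, against 1180 and 776 in control 1 and 2. In 7 of 8 of them the samples numbered 1 were on top, an order found in 38.2% of all genes. T cell markers summed to 22.0 and 2.49 with metformin, against 3.93 and 1.79 in controls. Of them, 4 of 5 had the samples numbered 1 on top (38.2% of all genes). Most of the sum in metformin 1 came from the granzyme Gzma, at 4.20 and 0.58 on the log2 scale with metformin, against 1.40 and -0.19 in controls, while the T cell receptor subunit Cd3e read 0.75 and -0.41 with metformin, against -0.10 and -0.56 in controls (both named after their values were seen). Most genes of both lists thus ran opposite to most of the stress response genes. Markers of the proximal small intestine summed to 738 and 71.3 with metformin, against 223 and 82.0 in controls. Of the 6 tested, 5 had the samples numbered 1 on top (38.2% of all genes), Gata4 being the exception. Pdx1 was not well above background on any array. Their median log2 step from sample 1 to sample 2 was -3.09 with metformin and -0.69 in controls. Ada, named after its values were seen, had steps of -8.17 and -7.41. Those of Gdf15 had the opposite sign, at 4.45 and 4.61.

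Ileal enterocyte markers were present on every array, at sums of 380 and 901 with metformin, against 925 and 669 in controls, but the bile acid transporter Slc10a2, also named for its values, read -0.90 in metformin 1, against 4.92 in metformin 2 and 4.45 and 3.28 in controls. Smooth muscle markers summed to 3.91 and 4.63 with metformin, against 98.7 and 5.53 in controls, so control 1 stood apart. Markers of fibroblasts and fat separated by treatment. All 6 fibroblast markers and all 4 tested adipocyte markers were below both controls in both metformin samples, as were 4 of 5 smooth muscle markers (8.57% of all genes). The fibroblast marker Dpt was not well above background in either metformin sample, nor the adipocyte marker Plin1 in metformin 2. Both were thus kept only through the controls, which favours their place below them. Median differences were -2.11 for fibroblasts, -3.08 for fat and -3.13 for smooth muscle, with none passing limma's adjusted threshold. Fibroblast markers summed to 2.78 and 1.19 with metformin, against 10.3 and 5.18 in controls, and adipocyte markers to 0.82 and 0.16, against 1.94 and 5.18. The part that cell make-up or gut position had in the stress response values was not tested. In such whole-tissue RNA, fewer cells of a type and less RNA per cell cannot be told apart.

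**Figure D5:**
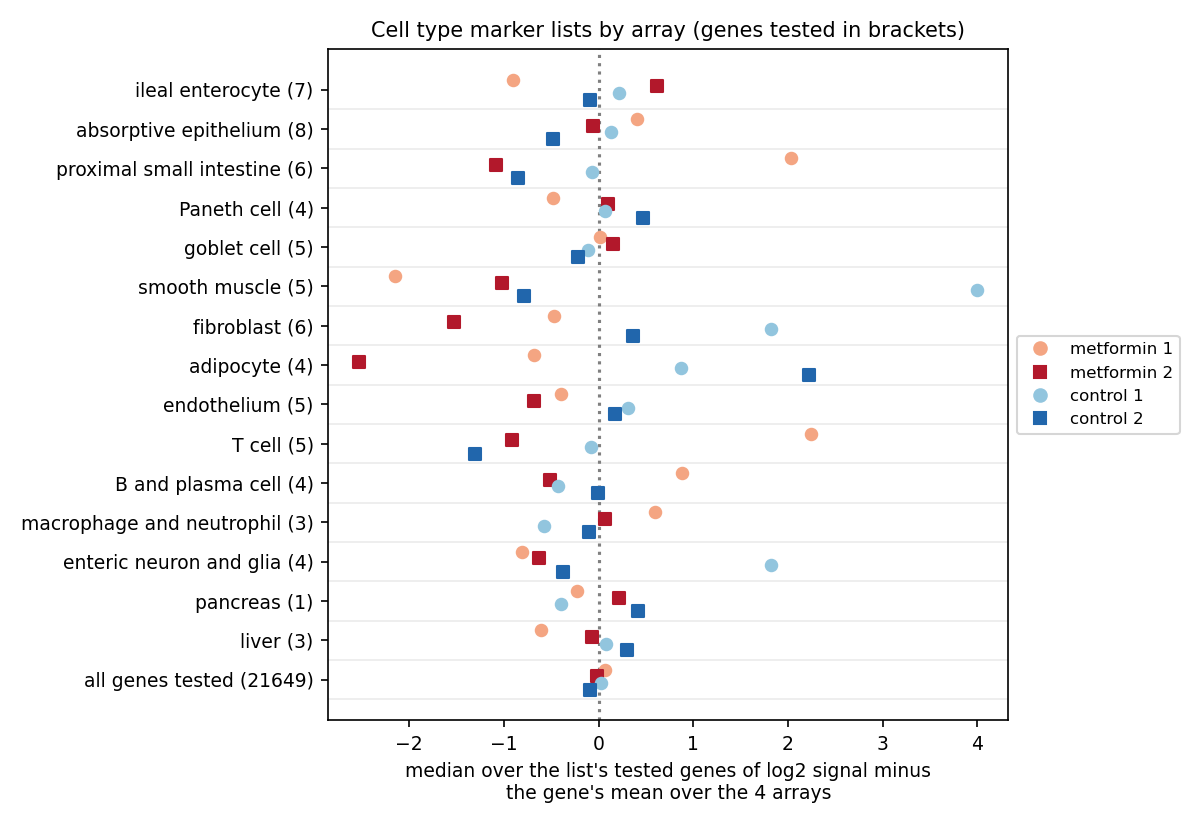
As for the stress gene lists, for 15 cell type marker lists. Metformin 1 stands apart for proximal small intestine and T cell markers, control 1 for smooth muscle and enteric neuron markers, and metformin 2 is lowest for fibroblast and adipocyte markers.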

How the data were processed

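Ileal RNA was measured on 4 single-colour arrays, 2 per group. The scanner files hold spot intensity on a linear scale from Agilent Feature Extraction 10.7.3.1, per the file headers, with background subtraction and detrending within the array and no scaling between arrays. The authors also deposited a table called normalized, whose intensity equalled the raw median spot signal (within 0.5 units) for all 39030 probes with 1 spot, so it was used only as an alternative. 

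Spots that the scanner software marked as outliers were dropped (47 probes lost), spots of a probe were averaged as log2, and each array's 75th percentile over probes was subtracted. A probe was kept where both arrays of either group were well above background, and the brightest per gene was tested (21649). Accessions were matched without versions to the RefSeq table of GRCm38.p6 (27508 probes named). The header names another genome build, so only RefSeq promoter positions are given. R 4.3.3 and its package limma 3.58.1 (functions lmFit, then eBayes) gave two-sided p-values, with Benjamini-Hochberg adjustment and a cut at 0.05, with 2 residual and 2.43 prior degrees of freedom. An exact permutation test of 2 against 2 cannot go below 0.33. The fit was tested on simulated data with independent noise in each array. Such data cannot show how it behaves where same-numbered samples share deviations, as here.

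The members and lists were chosen with earlier results of these data known. Named genes are all members, the 3 of smallest p of each other pathway list and the 6 most like Gdf15 (clone and predicted names left out); exceptions are stated. As the files used here give no mean spot signal, normexp correction, an alternative, started from the median spot signal. The number of arrays limits the precision.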

Additional observations from a re-analysis of the deposited data

How the results depend on the processing

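Across 13 alternatives no gene of the set, and none of all genes, passed the adjusted threshold of limma's fit, leave-one-out fits included (0 in each); where 1 sample was left in a group, it was assumed to vary like the other group. Of 117 member differences under an alternative, 96 kept their sign and 21 did not. Atf4 was -0.0095 with normexp background correction, -0.085 with quantile normalization, -0.26 in the unscaled deposited table and -0.0012 in that table after scaling. Chac1 was -0.0065 with normexp and -0.25 in the unscaled table. Leaving out 1 sample gave -3.04 to 1.57 for Gdf15, -2.30 to 1.07 for Atf3, -0.48 to 0.60 for Atf4, -0.48 to 0.34 for Ddit3, -0.61 to 0.56 for Trib3, -1.52 to 1.18 for Asns, -1.97 to 2.10 for Chac1, -0.24 to 0.036 for Sesn2 and -1.67 to 0.029 for Ppp1r15a. The median over the set then ranged from -1.51 to 0.60. The count of genes at least 2-fold higher in sample 2 in each group, a comparison chosen after seeing the data, was 5 or 6 in each scaling. The numbers are not stated to pair samples, though deviations of same-numbered samples correlated at 0.56 across genes. In limma's fit with the replicate block Gdf15 differed by -0.73 (SE 0.15, interval -1.23 to -0.23, unadjusted p = 0.019, adjusted p = 0.63). Atf3 differed by -0.61 (SE 0.18) and Ppp1r15a by -0.82 (SE 0.26). In that fit 0 genes passed, and 1566 of 21649 had an unadjusted p under 0.05, against 347 in the main fit. A slide block was not run, as all arrays lay on 1 slide.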

Other observations

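Other stress programmes shared the step between samples to different degrees, as values chosen from lists and with no test of the sample number. Of 17 immediate early genes 12 were at least 2-fold higher in sample 2 than in sample 1 in each group (3.8% of all genes), and 0 passed the treatment test. Fos, a subunit of the AP-1 factor, read 3.61 and 4.85 in metformin 1 and 2, against 2.15 and 4.16 in control 1 and 2, and Jun, its partner, 4.73 and 6.06, against 4.26 and 5.45. Klf4, which promotes epithelial differentiation, ran the other way, at 5.45 and 4.35 with metformin, against 4.90 and 4.10 in controls. Fosl1, named after its values were seen, read -6.25 and 0.36 with metformin, against -6.19 and -0.23 in controls.

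Of 6 heat shock genes tested, 5 had both samples numbered 2 on top (27.7% of all genes). In 3 of them sample 2 was at least 2-fold above sample 1 in each group (3.8% of all genes). Hspa1a, an inducible chaperone whose probe can bind its near-identical copy, had the widest step of the list and was named for it: -3.20 and 4.85 in metformin 1 and 2, against -3.05 and 3.89 in control 1 and 2. Dnajb1, its co-chaperone, read 4.30 and 6.13, against 3.82 and 5.59, and Bag3, a regulator of the same chaperones, 1.88 and 3.12, against 1.69 and 2.68. Hspb1, a small heat shock protein, was the exception, at -0.60 and 0.84 with metformin and 2.69 and 0.79 in controls. Control 1, in which it was highest, was also the array with the highest smooth muscle sum (98.7). A link between these values was not tested.

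Of 15 p53 targets 2 and of 15 hypoxia-inducible genes 5 had the 2-fold step in each group (3.8% of all genes), while 7 and 6 of them had both samples numbered 1 on top (38.2% of all genes). Cdkn1a, a cell cycle inhibitor, differed between treatments by 0.49 (SE 0.31, no overlap), Btg2, an antiproliferative factor, by 0.51 (SE 0.41) and Phlda3, an inhibitor of AKT signalling, by -1.69 (SE 0.49, unadjusted p = 0.022, adjusted p = 1.00), none passing limma's adjusted threshold. Phlda3 read -3.39 and -2.66 with metformin, against -0.86 and -1.81 in controls. Among the hypoxia-inducible genes Pdk1, which limits pyruvate use by mitochondria, differed by -0.27 (SE 0.29, no overlap), Higd1a by 0.32 (SE 0.35) and Egln3, an oxygen sensor, by 0.53 (SE 0.60).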
